A study of Mus musculus with 3 samples.

Results

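A set of 7 genes of cholesterol synthesis and its feedback control was followed in mouse hepatocytes: Srebf2, Insig1, Hmgcs1, Idi1, Fdft1, Sqle and Lss. The rule picks them by gene symbol, and they are 7 of the 32285 genes counted. The data are 10x Genomics 3' single-cell RNA libraries from liver cells freed by collagenase perfusion, and the study asked what loss of Adar1, an RNA-editing enzyme, does in hepatocytes that lack the double-stranded RNA sensor MDA5. The 3 libraries came from C57BL/6 male mice aged 9 weeks. All carried Ifih1-/-, which removes MDA5, and Alb-Cre+, a Cre recombinase under the albumin promoter that acts in hepatocytes. They differed in Adar1, which was wt/wt, wt/flox or flox/flox, and where 3 values follow each other below they stand in that order unless named otherwise. Each genotype had 1 library, and the labels do not say how many animals it holds, so a difference between genotypes cannot be told apart from one between animals or preparations. No test was possible, and every interval below covers counting error only, at 95%.

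Cholesterol is made from acetyl-CoA through mevalonate, isoprenoids, squalene and lanosterol. Srebf2 encodes SREBP2, a membrane-bound transcription factor that SCAP escorts from the endoplasmic reticulum when membrane sterol is low, after which its freed N-terminal part enters the nucleus and switches on the synthesis enzymes. INSIG1, itself a product of an SREBP target gene, holds SCAP back when sterol is plentiful, and the liver is a main site of this control.

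SREBP2 binds sterol regulatory elements, often beside CCAAT boxes bound by NF-Y, so the sequence before the start site is shown for the enzyme gene that differed most between libraries, for the regulator's own gene and for the feedback gene. RefSeq promoters (build GRCm38.p6, 250 bases before the start) were found for 5 of the 7 genes: Srebf2, Insig1, Hmgcs1, Idi1 and Lss. Capitals mark TCACNCCAC or its shorter form TCACNCCA, which lies within it and was added after the letters were seen, and CCAAT, which reads ATTGG when it is on the other strand. All 3 genes lie on the plus strand, and the windows end before the annotated gene or the RefSeq start, at chr13:119690101-119690350 for Hmgcs1, chr15:82147019-82147180 for Srebf2 and chr5:28071162-28071362 for Insig1.
Hmgcs1: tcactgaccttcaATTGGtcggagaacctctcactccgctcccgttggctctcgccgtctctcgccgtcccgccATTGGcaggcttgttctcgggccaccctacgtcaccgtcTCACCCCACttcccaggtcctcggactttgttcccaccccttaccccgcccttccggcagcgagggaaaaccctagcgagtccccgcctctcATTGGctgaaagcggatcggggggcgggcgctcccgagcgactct
Srebf2: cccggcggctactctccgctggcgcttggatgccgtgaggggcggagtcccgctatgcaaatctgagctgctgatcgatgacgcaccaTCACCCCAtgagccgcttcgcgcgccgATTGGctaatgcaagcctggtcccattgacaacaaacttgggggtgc
Insig1: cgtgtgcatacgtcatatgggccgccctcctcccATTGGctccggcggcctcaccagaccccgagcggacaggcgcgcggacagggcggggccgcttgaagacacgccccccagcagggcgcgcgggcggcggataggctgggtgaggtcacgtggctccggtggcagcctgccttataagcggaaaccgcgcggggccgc
The Hmgcs1 window held TCACCCCAC from 137 to 129 bases before the RefSeq start and 3 CCAAT boxes on the reverse strand. The Srebf2 promoter held the shorter form, TCACCCCA, from 162 to 155 bases before the start, and 1 reverse CCAAT box from 135 to 131. In Insig1 there was 1 reverse CCAAT box, from 216 to 212 bases before the start. Idi1 held reverse CCAAT boxes from 45 to 41 and from 14 to 10 bases before the RefSeq start, and Lss from 62 to 58. The Idi1 RefSeq start, 8885606, lies inside the annotated gene, which begins at 8885501. Both Idi1 boxes therefore fall within the annotated gene and not before it. Neither form of the sterol regulatory element was found in Insig1, Idi1 or Lss. Searched on both strands of all 32851 promoters in the table, TCACNCCAC occurred in 1.05%, TCACNCCA in 3.67% and CCAAT in 33.8%. These are matches of letters and not measured binding sites.

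Each library held 10000 barcodes, selected in a way not given in the sources used here, with 9744380 to 10756790 unique molecular identifiers (UMIs, each counting 1 captured transcript), and 9772 to 9920 barcodes passed the filters. Hepatocyte-like barcodes numbered 8143, 7210 and 7751, with median depths of 825, 862.5 and 904 UMIs. They came from clusters where no other type's markers led or passed the naming rule. At least 3 of 12 hepatocyte markers also had to be seen in most barcodes of the cluster. Clusters named as other types had 10 of the 12 seen as widely, so the name rests on the lack of other types' markers. All 12 hepatocyte markers were detected in each library, their summed level running from 67898 to 78746 UMIs per 1000000 hepatocyte-like UMIs (CPM), while the lists of 12 other cell types summed to at most 130 CPM. Mitochondrial genes took a median 5.02%, 4.18% and 7.92% of the UMIs of hepatocyte-like barcodes. The Hmgcs1 log2 ratio of flox/flox over wt/wt, 0.71 in all, was 0.76 in barcodes with at most 20% mitochondrial UMIs. It was 0.75 when scaled without mitochondrial genes and 0.70 without cluster 5, the mitochondrial-led cluster. Cluster 6, also led in part by mitochondrial genes, was kept there. It held 545, 529 and 2466 barcodes, with median mitochondrial shares of 13.6%, 14.2% and 14.3%. The Adar transcript was counted at 10.4, 17.0 and 35.5 CPM, so it went against the label of the library labelled flox/flox. The labels do not name the deleted exons, and 3' reads that fall elsewhere would not show their loss, so every direction below rests on the labels. Between 20 and 32 barcode sequences were shared by each pair of libraries, and doublets were not removed.

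Hmgcs1 had the widest range across the libraries. It encodes the cytosolic synthase that makes HMG-CoA, the precursor of mevalonate. In hepatocyte-like barcodes it had 3796, 2341 and 6584 UMIs, or 491, 333 and 805 CPM. The library labelled flox/flox was thus the highest and wt/flox the lowest, with counting intervals of 476 to 507, 319 to 346 and 786 to 825 that did not overlap. On the log2 scale, flox/flox was 0.71 above wt/wt (0.66 to 0.77) and 1.28 above wt/flox (1.21 to 1.34), and wt/flox lay at -0.56 relative to wt/wt (-0.64 to -0.49). The gene (ENSMUSG00000093930) spans chr13:119690379-119708260 on the plus strand of mm10, and an antisense gene that overlaps it had 12 UMIs in all.

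Sqle, which adds the first oxygen to squalene and is a rate-limiting enzyme of the later pathway, was the other of the 7 genes above wt/wt in flox/flox by more than 1.5-fold. It had 423, 502 and 825 UMIs, or 54.7, 71.3 and 101 CPM. Its order differed from that of Hmgcs1, since wt/flox lay between the others and not below them. The log2 ratio was 0.88 for flox/flox over wt/wt (0.71 to 1.06), 0.50 over wt/flox (0.34 to 0.66) and 0.38 for wt/flox over wt/wt (0.19 to 0.57). Sqle lies at chr15:59315077-59331192 on the plus strand.

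The regulators did not share the Hmgcs1 pattern. Insig1 (chr5:28071363-28078662, plus strand) had 2017, 2341 and 1909 UMIs, or 261, 333 and 234 CPM. It was highest where Hmgcs1 was lowest, in wt/flox, and lowest where Hmgcs1 was highest. Its log2 ratio was -0.16 for flox/flox over wt/wt (-0.25 to -0.07), -0.51 over wt/flox (-0.60 to -0.42) and 0.35 for wt/flox over wt/wt (0.26 to 0.44). Srebf2 (chr15:82147181-82205379, plus strand) had 391, 342 and 344 UMIs, or 50.6, 48.6 and 42.1 CPM. Its log2 ratio for flox/flox over wt/wt was -0.27 (-0.48 to -0.05), and the other intervals, -0.43 to 0.01 for flox/flox over wt/flox and -0.27 to 0.15 for wt/flox over wt/wt, included 0.

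The other 3 enzymes differed less. Idi1, which converts isopentenyl to dimethylallyl diphosphate (chr13:8885501-8892451, plus strand), had 2334, 1698 and 2332 UMIs, or 302, 241 and 285 CPM. Like Hmgcs1 it was lowest in wt/flox, but its flox/flox and wt/wt levels lay close together, with a log2 ratio of -0.08 (-0.17 to 0.00). Against wt/flox the ratio was 0.24 in flox/flox (0.15 to 0.33), and wt/flox over wt/wt was -0.32 (-0.42 to -0.23). Fdft1, squalene synthase, had 769, 578 and 619 UMIs, or 99.5, 82.1 and 75.7 CPM, with a log2 ratio of -0.39 for flox/flox over wt/wt (-0.55 to -0.24) and -0.28 for wt/flox over wt/wt (-0.44 to -0.12). The Fdft1 value is uncertain, because Fdft1 (chr14:63145150-63179578, minus strand) shares 774 bases at its 3' end with Ctsb on the other strand, and whether counting used strand is not stated. Ctsb, a lysosomal protease gene, was at 167, 195 and 253 CPM, in the order opposite to Fdft1, and its part in the Fdft1 counts was not tested. Lss, which folds oxidosqualene into lanosterol (chr10:76531588-76557138, plus strand), had 210, 185 and 254 UMIs, or 27.2, 26.3 and 31.1 CPM, and the intervals of its 3 ratios all included 0. At this depth no difference in Lss was detectable, with flox/flox over wt/wt between -0.08 and 0.46.

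**Figure D1:**
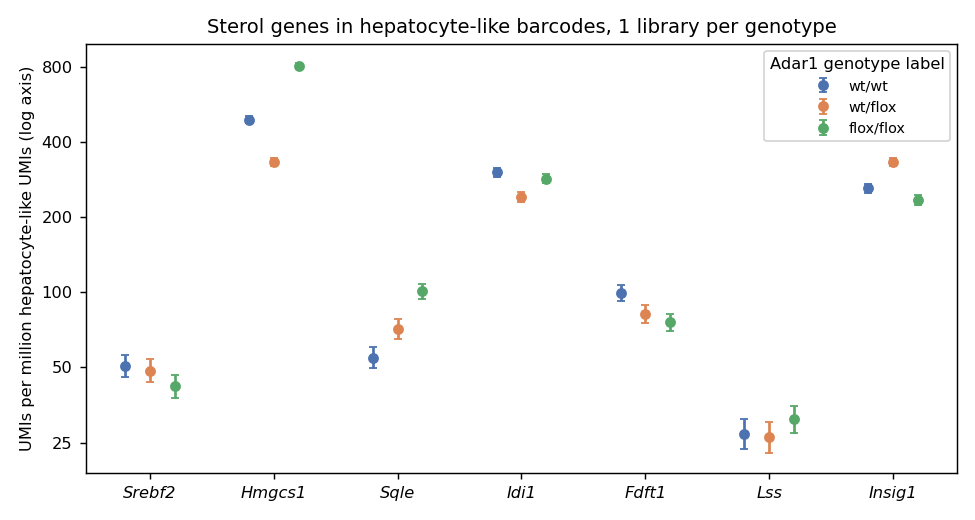
UMIs per 1000000 hepatocyte-like UMIs (log axis) for each of the 7 genes, with 1 colour per genotype. Points are 1 library each and bars are exact Poisson 95% intervals for counting error. Hmgcs1 stands highest in flox/flox (805) and lowest in wt/flox (333), whereas Insig1 is highest in wt/flox (333).

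All 7 genes passed the filter of 20 UMIs over the 3 libraries. Of them, 2 (Hmgcs1 and Sqle) were at least 1.5-fold higher and 0 at least 1.5-fold lower in flox/flox than in wt/wt. Among all 11340 genes with at least 20 UMIs, 14.3% were that much higher and 7.39% that much lower. Against wt/flox, 1 gene (Hmgcs1) was higher and 0 lower, beside 13.3% and 9.81% of all genes, and Insig1 lay just inside the lower bound. In wt/flox over wt/wt, 0 were higher and 0 lower, beside 10.0% and 6.96%, with Hmgcs1 just inside the bound. Hmgcs1 alone was at least 1.5-fold above both other libraries in flox/flox, as were 6.72% of all genes, and none of the 7 was as far below both, as were 4.29%. The median log2 ratio of the 7 genes was -0.08, 0.24 and -0.06 in flox/flox over wt/wt, flox/flox over wt/flox and wt/flox over wt/wt, beside 0.08, 0.04 and 0.04 over all genes. The comparisons share libraries, so their counts are not independent.

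Summed over the 7 genes there were 9940, 7987 and 12867 UMIs, or 1286, 1135 and 1574 CPM. The sum in flox/flox was 1.22-fold that of wt/wt and 1.39-fold that of wt/flox, or 0.29 (0.25 to 0.33) and 0.47 (0.43 to 0.51) on the log2 scale, and wt/flox over wt/wt was -0.18 (-0.22 to -0.14). Hmgcs1 supplied 38.2%, 29.3% and 51.2% of the summed UMIs, and the sums had the same order of libraries as this gene. Restricted to barcodes of at least 2000 UMIs, which were 118, 99 and 375 in number, the sum gave 0.55 for flox/flox over wt/wt and turned in direction for wt/flox over wt/wt, to 0.0754. Over all 16 alternative treatments of the data the Hmgcs1 ratio ran from 0.65 to 0.80 over wt/wt, from 1.22 to 1.33 over wt/flox, and from -0.59 to -0.49 for wt/flox over wt/wt. Sqle and Srebf2 ran over wider ranges. Sqle ran from 0.72 to 2.39 for flox/flox over wt/wt and from 0.09 to 1.74 for wt/flox over wt/wt, both highest in barcodes of at least 2000 UMIs, where wt/wt had 5 Sqle UMIs. Srebf2 in flox/flox over wt/flox ran from -0.94 at 2000 UMIs or more to 0.27 when thinned to 1000 UMIs, and in wt/flox over wt/wt from -0.47 when thinned to 1.45 at 2000 UMIs or more, so the sign of its ratio depended on these settings.

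The rest of the pathway was read from a list of 20 sterol synthesis enzymes, which includes 5 of the 7 genes. All 20 were measured. In flox/flox over wt/wt, 4 were at least 1.5-fold higher (Hmgcs1, Sqle, Msmo1 and Hsd17b7) and 1 lower (Pmvk), beside 14.3% and 7.39% of all genes, with a median log2 ratio of -0.01. Over wt/flox, 4 were higher (Hmgcs1, Msmo1, Nsdhl and Hsd17b7) and 0 lower, beside 13.3% and 9.81%, with a median of 0.24. In wt/flox over wt/wt there were 0 in each direction, beside 10.0% and 6.96%, with a median of -0.27. The counts are a description of the list, and nothing particular to it is read from them.

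Of the 20, 3 stood at least 1.5-fold above both other libraries in flox/flox: Hmgcs1, Msmo1 and Hsd17b7, beside 6.72% of all genes. Msmo1, the C4-methyl sterol oxidase, was at 124, 101 and 186 CPM. Its flox/flox level was 0.59 above wt/wt (0.47 to 0.70) and 0.88 above wt/flox (0.75 to 1.01) on the log2 scale. Hsd17b7, the 3-ketosteroid reductase of the same C4-demethylation steps, was at 57.2, 52.6 and 94.1 CPM, with ratios of 0.72 (0.55 to 0.89) and 0.84 (0.66 to 1.02). Nsdhl, the dehydrogenase of that complex, was at 57.8, 40.5 and 69.7 CPM and passed 1.5-fold only against wt/flox (0.78, 0.58 to 0.99).

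Other enzymes of the pathway were lower in flox/flox than in wt/wt. Pmvk, phosphomevalonate kinase, was at 163, 115 and 101 CPM, with a log2 ratio of -0.69 for flox/flox over wt/wt (-0.82 to -0.57). Fdps, which makes farnesyl diphosphate, had a ratio of -0.57 (-0.66 to -0.47), and Ebp, the sterol isomerase, one of -0.55 (-0.66 to -0.44), both short of 1.5-fold. Enzymes of the same pathway thus differed in opposite directions between these libraries. Nsdhl, Pmvk, Fdps and Ebp were picked for naming after their values were seen.

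**Figure D2:**
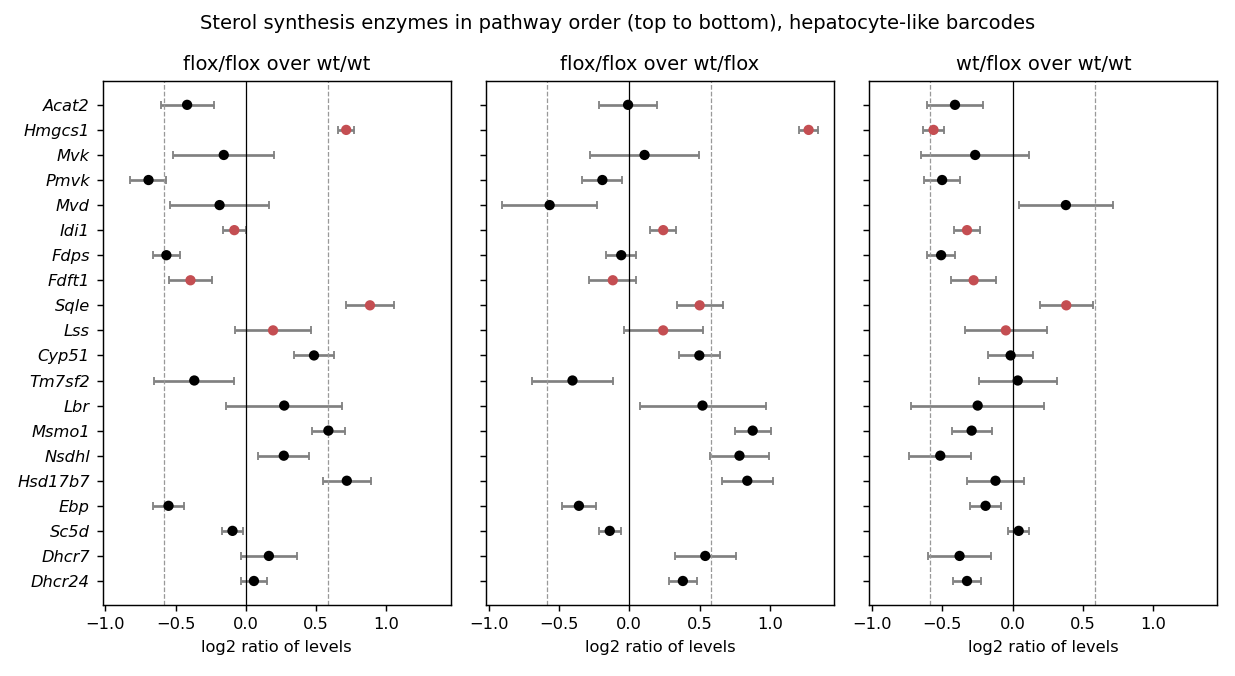
Log2 ratios of levels for 20 sterol synthesis enzymes in pathway order from top to bottom, with 95% counting intervals, in flox/flox over wt/wt (left), flox/flox over wt/flox (middle) and wt/flox over wt/wt (right). Red points are among the 7 genes, black points the other enzymes, and dashed lines mark 1.5-fold. Hmgcs1 lies at 0.71, 1.28 and -0.56, and Pmvk at -0.69 in the left panel.

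The libraries filled the hepatocyte-like clusters unequally, so ratios were also taken within each cluster. Clusters 2 and 6 came mostly from flox/flox (2704 and 2466 of its barcodes) and cluster 11 mostly from wt/flox (2625). Genes induced by interferon, among them Isg15 and Ifit1, led cluster 2, Cyp2a4 and mitochondrial genes led cluster 6, and major urinary protein and serum amyloid genes led cluster 11. In the 8 clusters with at least 200 barcodes in every library, Hmgcs1 was above wt/wt in flox/flox in 8 of 8, with log2 ratios from 0.52 to 1.09, and above wt/flox in 8 of 8, from 1.02 to 1.55. All 16 of these lower limits were above 0. Its wt/flox over wt/wt ratio ran from -0.79 to -0.30, with 7 of 8 upper limits below 0. The clusters were drawn from the same genes, so these values describe how evenly the difference was spread and are no separate evidence.

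Insig1 kept its own order within clusters. In flox/flox over wt/flox it was below 0 in 8 of 8, from -1.02 to -0.33, with 7 upper limits below 0, and in wt/flox over wt/wt it was above 0 in 8 of 8, from 0.16 to 0.45, with 4 lower limits above 0. For flox/flox over wt/wt 3 of its 8 upper limits were below 0. Sqle was less even. Its flox/flox over wt/wt ratio ran from -0.07 in cluster 4, where flox/flox had 8 UMIs, to 1.89 in cluster 3, and was above 0 in 7 of 8 clusters with 4 lower limits above 0. Fdft1 was below 0 in 8 of 8 clusters for flox/flox over wt/wt (-1.12 to -0.15), with 3 upper limits below 0. In the same comparison Srebf2 ran from -1.30 to 0.31, with 2 upper limits below 0. Lss ran from -1.22 in cluster 4 to 0.90 in cluster 3, where flox/flox had 2 and 8 UMIs, and had 1 lower limit above 0. For Idi1 the flox/flox over wt/flox ratio took both signs beyond counting error, from -0.30 to 0.85, with 5 lower limits above 0 and 1 upper limit below it.

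**Figure D3:**
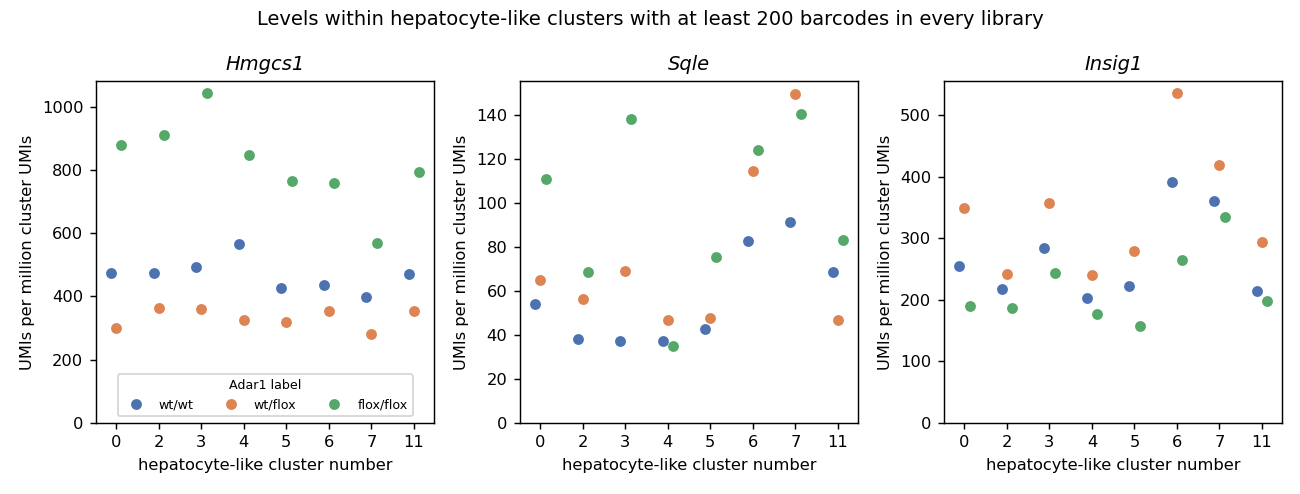
Hmgcs1, Sqle and Insig1 in UMIs per 1000000 cluster UMIs within the 8 hepatocyte-like clusters that had at least 200 barcodes in every library, 1 point per library. Hmgcs1 is highest in flox/flox and lowest in wt/flox in each of the 8 clusters, and Insig1 is highest in wt/flox in each.

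Cluster 7 had Neat1, a long noncoding transcript held in the nucleus, among its leading genes, beside Egfros, Ctcflos and several predicted genes. Where the transcripts of these other genes reside was not measured. The cluster, called nuclear-led below, held 14.0%, 12.8% and 12.3% of the hepatocyte-like barcodes. In it, Srebf2 was at 87.9, 90.6 and 92.8 CPM, against 43.8, 41.7 and 33.9 in the remaining hepatocyte-like barcodes. Lss was also higher there, at 36.8, 49.3 and 62.7 CPM against 25.4, 22.5 and 26.0, and so were Sqle (91.3, 150 and 140 against 48.1, 58.4 and 94.6) and Insig1 (360, 420 and 334 against 243, 318 and 217). Hmgcs1 was lower there in all 3 libraries, at 397, 281 and 569 CPM against 508, 341 and 843. The regulator genes, Sqle and Lss thus had a larger share of UMIs in cluster 7, and Hmgcs1 a smaller one, in all 3 libraries. Idi1 (216, 275 and 224 CPM against 318, 236 and 295) and Fdft1 (108, 79.5 and 60.1 against 98.0, 82.5 and 78.2) were higher there in some libraries and lower in others. Because cluster 7 was formed from these cells' own genes, this is a description. Malat1 and Neat1 made up a median 0.129%, 0.129% and 0.141% of UMIs in the 3 libraries, and the part of this in the genotype ratios was not tested beyond the alternatives in the closing section.

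Cholesterol synthesis has been described as a periportal function of the lobule, so the barcodes with at least 5 zonation marker UMIs were ranked by the share of pericentral markers and divided into 3 equal groups in each library. The ranking left out 652, 1001 and 1573 barcodes. None of the 7 genes differed by 1.5-fold between the most periportal and the most pericentral barcodes in any library, whereas 9.27%, 9.32% and 11.3% of all measured genes were that much higher in periportal barcodes and 7.13%, 7.18% and 6.56% in pericentral ones. Hmgcs1 was at 464, 320 and 765 CPM in the most periportal barcodes, and at 523, 351 and 818 in the most pericentral. The log2 differences were -0.17 (-0.29 to -0.06), -0.13 (-0.29 to 0.02) and -0.10 (-0.19 to 0.00), and with at least 10 marker UMIs the flox/flox value turned to 0.048. Lss, with 0.47 in wt/flox (-0.14 to 1.08), had the widest intervals. The genotype ratios of Hmgcs1 kept their sign along the ranking: flox/flox over wt/wt was 0.72, 0.75 and 0.65 from the periportal to the pericentral group, and flox/flox over wt/flox was 1.26, 1.36 and 1.22. Most barcodes had few marker UMIs, which blurs the ranking, and the markers that set it, such as Cyp2e1, are no independent check of it.

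**Figure D4:**
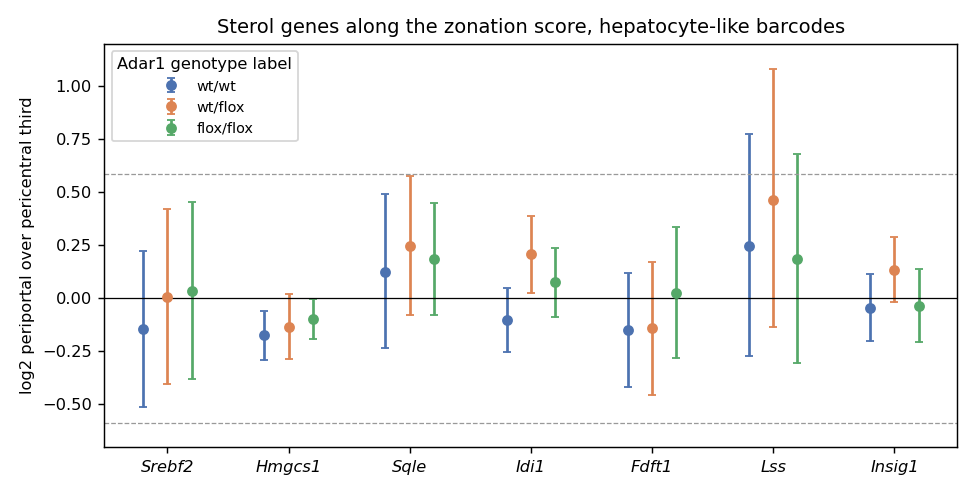
Log2 ratio of the level in the most periportal over the most pericentral of 3 equal groups of hepatocyte-like barcodes, for each gene and library, with 95% counting intervals. Dashed lines mark 1.5-fold, and no point of the 7 genes reaches them. The highest is Lss in wt/flox at 0.47.

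Counted per barcode, at least 1 UMI of any of the 7 genes was found in 67.9%, 64.8% and 76.9% of hepatocyte-like barcodes. A barcode held 1.22, 1.11 and 1.66 such UMIs on average, and 13.4%, 10.9% and 22.6% of barcodes held at least 3. Hmgcs1 was seen in 36.0%, 27.5% and 53.4% of barcodes, and in 37.0%, 27.4% and 52.7% after each barcode was thinned to 1000 UMIs, which left out 5800, 4944 and 4873 shallower barcodes. The order of the libraries was the same at equal depth. Sqle was seen in 5.00%, 6.55% and 9.82% of barcodes (5.34%, 6.40% and 9.62% thinned), and Insig1 in 21.3%, 26.6% and 20.8% (24.3%, 28.4% and 21.5% thinned).

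T or natural killer-like barcodes, from cells that make no hepatocyte proteins, served as the background, though lymphocytes can also make cholesterol. There, Hmgcs1 was seen in 35.7%, 23.7% and 43.2% of barcodes, at median depths of 986.5, 963.5 and 966 UMIs. Hepatocyte RNA was plentiful in these barcodes, at 57.8% to 67.3% of the hepatocyte level by the median of 12 hepatocyte markers. The share with Hmgcs1 in wt/wt hepatocyte-like barcodes (34.9% to 37.0%, exact binomial interval) lay within the interval of the T or natural killer-like share (30.5% to 41.1%). The intervals also overlapped in wt/flox (26.5% to 28.6% and 20.1% to 27.7%), whereas in flox/flox the hepatocyte-like share (52.3% to 54.5%) lay above the other (39.2% to 47.3%). Sqle was seen in 3.35%, 2.94% and 3.40% of T or natural killer-like barcodes, below the hepatocyte-like share in each library. In wt/wt this rested on 11 barcodes, and the interval (1.69% to 5.92%) contained that of the hepatocyte-like share (4.53% to 5.49%). The intervals lay apart in wt/flox and flox/flox. Insig1 was seen in 13.1%, 19.4% and 10.4% of T or natural killer-like barcodes.

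Across the 8 other cell classes with at least 50 barcodes in each library, levels of the 7 genes were set beside the level that the hepatocyte RNA in each class would give, estimated from the same markers and amounting to 40.4% to 86.2% of the hepatocyte level. That estimate carries no error of its own. For Sqle and Insig1, no lower limit lay above that level in any class or library. By the same measure, Srebf2 stood above it in all 3 libraries of monocyte or macrophage-like barcodes, at 49.2 to 80.7 CPM against 17.6 to 26.0, and in 2 of 3 libraries of plasmacytoid dendritic-like, Kupffer-like and B-like barcodes. In plasmacytoid dendritic-like barcodes its level was 72.4 to 84.3 CPM against 20.9 to 27.9. These levels rest on 57 UMIs in all for the monocyte or macrophage-like and 32 for the plasmacytoid dendritic-like class, and stand beside 42.1 to 50.6 CPM in hepatocyte-like barcodes.

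Hmgcs1 stood above the hepatocyte RNA level in all 3 libraries only in plasmacytoid dendritic-like barcodes, at 295 to 673 CPM against 191 to 400. It did so in 2 of 3 libraries of Kupffer-like, monocyte or macrophage-like, T or natural killer-like and endothelial-like barcodes. The same held in 1 of 3 for B-like and stellate or fibroblast-like barcodes, and in 0 of 3 for neutrophil-like ones. By median over libraries its order was plasmacytoid dendritic-like (507), hepatocyte-like (491), neutrophil-like (421), endothelial-like (411), T or natural killer-like (385), B-like (344), stellate or fibroblast-like (301), Kupffer-like (286) and monocyte or macrophage-like (261). The ranges over libraries of all neighbours in this order overlapped. In Kupffer-like barcodes Hmgcs1 was at 286, 195 and 476 CPM, and the hepatocyte RNA level, at 233, 151 and 325 CPM, had the same order of libraries. Idi1 exceeded its hepatocyte RNA level in 2 of 3 libraries in 5 classes, Lss in 1 of 3 in Kupffer-like barcodes and Fdft1 in 1 of 3 in endothelial-like ones.

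**Figure D5:**
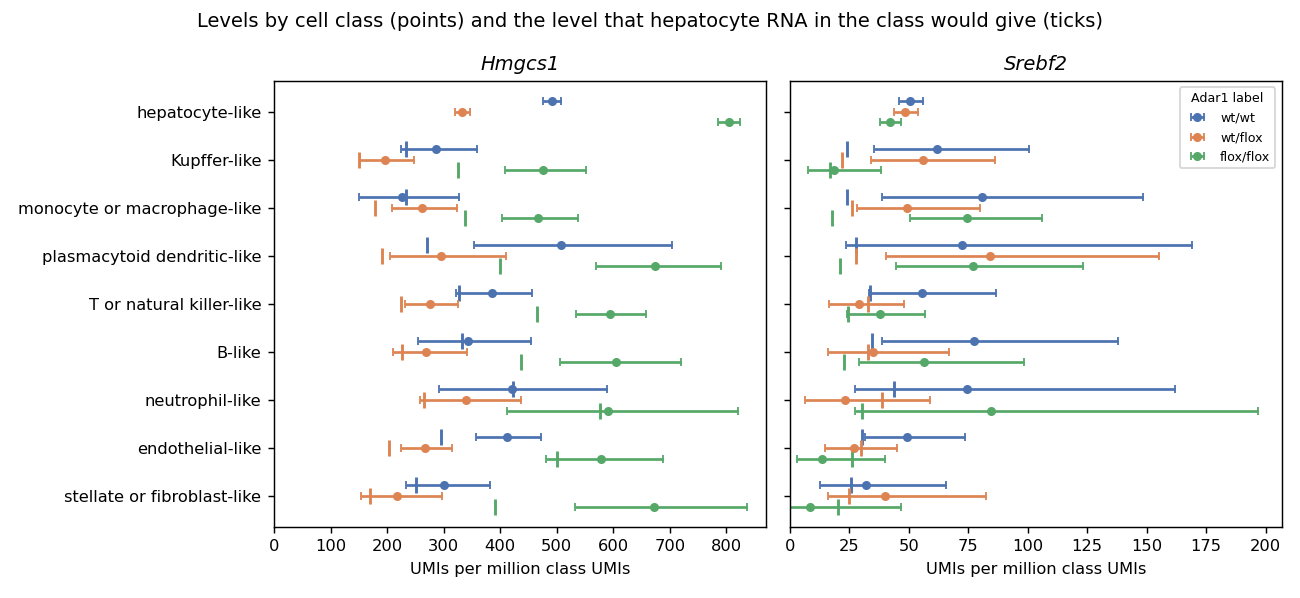
Hmgcs1 (left) and Srebf2 (right) by cell class in UMIs per 1000000 class UMIs, 1 point per library with exact Poisson 95% intervals. Vertical ticks give the level that hepatocyte RNA in the class would produce. Srebf2 lies above its tick in all 3 libraries of monocyte or macrophage-like barcodes (49.2 to 80.7 against 17.6 to 26.0).

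Among 17 genes of sterol sensing and SREBP processing, all measured and including Srebf2 and Insig1, the gene that differed most was Srebf1. It encodes SREBP1, the SREBP of fatty acid synthesis, and was at 73.0, 75.3 and 27.5 CPM. Its log2 ratio was -1.41 for flox/flox over wt/wt (-1.64 to -1.18) and -1.45 over wt/flox (-1.68 to -1.22), beside -0.27 and -0.21 for Srebf2. In flox/flox over wt/wt, 2 of the 17 were higher (Rnf145 and March6, now Marchf6, both ubiquitin ligase genes, the first from 23, 25 and 38 UMIs with an interval from -0.14 to 1.46) and 2 lower (Srebf1 and Scap), beside 14.3% and 7.39% of all genes, with a median of 0.09. Over wt/flox, 0 were higher and 1 lower (median 0.10), beside 13.3% and 9.81% of all genes. In wt/flox over wt/wt there were 0 and 0 (median 0.05), beside 10.0% and 6.96%. Scap, the escort of SREBPs, was at 69.5, 48.5 and 44.0 CPM. Insig2, the second INSIG gene, had the most UMIs of the list at 436, 541 and 581 CPM, and unlike Insig1 it was not lower in flox/flox than in wt/wt (0.41, 0.35 to 0.48). Rnf145, March6 and Scap were named after their values were seen.

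The isoprenoid branch and sterol uptake were read against the shares of all genes past 1.5-fold. These were 14.3% higher and 7.39% lower in flox/flox over wt/wt, 13.3% and 9.81% over wt/flox, and 10.0% and 6.96% in wt/flox over wt/wt. Of 10 isoprenoid branch genes, 1 was higher in flox/flox over wt/wt (Pdss1, with 9, 16 and 20 UMIs), 2 over wt/flox (Ggps1 and Srd5a3) and 1 in wt/flox over wt/wt (Pdss1, 0.96, -0.30 to 2.33), with none lower. Nus1, of dolichol synthesis, had the highest level of that list at 52.4, 66.8 and 66.9 CPM. Of 15 measured genes of sterol uptake and trafficking, 0 differed by 1.5-fold in flox/flox over wt/wt, 3 were higher over wt/flox (Npc1, Osbpl1a and Mylip), and 1 was lower in wt/flox over wt/wt. That gene was Mylip, with 13, 3 and 13 UMIs, whose ratio of -1.98 had an interval from -4.43 to -0.12, and its ratio over wt/flox (1.90) one from 0.04 to 4.35. Cnbp had the highest level of that list, at 177, 177 and 210 CPM. Ggps1, Srd5a3, Npc1 and Osbpl1a were named after their values were seen.

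Cyp27a1, Abcg5 and Abcg8, which act in sterol oxidation and efflux, were lowest in wt/flox. Of 9 measured genes for efflux, esterification and the oxysterol receptors LXR, these 3 were at least 1.5-fold lower in wt/flox than in wt/wt, beside 6.96% of all genes. Cyp27a1, the sterol 27-hydroxylase, was at 279, 141 and 179 CPM (wt/flox over wt/wt -0.99, -1.10 to -0.88). Abcg5 and Abcg8, which together form the transporter of sterols into bile, were at 38.8, 22.7 and 29.1 CPM and at 50.2, 32.7 and 37.3 CPM, with ratios of -0.77 (-1.06 to -0.49) and -0.62 (-0.86 to -0.38). In flox/flox over wt/wt, 1 of the 9 was higher (Nceh1, named after its value was seen) and 1 lower (Cyp27a1, -0.64). Of all genes, 14.3% were that much higher and 7.39% lower. Over wt/flox 0 of the 9 differed by 1.5-fold, beside 13.3% of all genes higher and 9.81% lower.

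Fatty acid synthesis genes, set beside the sterol genes for comparison, gave 0 of 12 measured genes past 1.5-fold in flox/flox over wt/wt, beside 14.3% of all genes higher and 7.39% lower. Over wt/flox 1 was higher (Thrsp, 771, 623 and 1155 CPM, also named after its value was seen), beside 13.3% of all genes. In wt/flox over wt/wt 1 was lower, beside 6.96% of all genes. That gene was Scd1, the stearoyl-CoA desaturase, at 5816, 3663 and 4203 CPM (-0.67, -0.69 to -0.64).

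Correlations among the 7 genes across hepatocyte-like pseudobulks took both signs. Over 25 pseudobulks (cluster by library, at least 100 barcodes), which share 3 libraries and their depth, the Pearson correlation of each gene with the sum of the other 6 was highest for Sqle (0.42) and Idi1 (0.40) and lowest for Insig1 (-0.47). The others were Lss (0.16), Fdft1 (-0.02), Srebf2 (-0.17) and Hmgcs1 (-0.17). In pairs, Hmgcs1 ran with Idi1 (0.58) and against Insig1 (-0.66), while Insig1 ran with Srebf2 (0.65) and Sqle with Lss (0.60). Some pseudobulks held few UMIs of a gene, such as 2 of Lss and 7 of Srebf2 in flox/flox barcodes of cluster 4. Counting error pulls such correlations toward 0, so a low value does not show that genes vary apart. Of 7447 other genes, those most like the summed profile were St3gal5 (0.87), Hsd17b7 (0.86), Gbp7 (0.85), Rasgef1b (0.84), Megf9 (0.84), Pptc7 (0.82), Tdo2 (0.82), Aass (0.81), Rapgef4 (0.81) and Retreg1 (0.81). Hsd17b7 was the only one of these 10 in the list of sterol synthesis enzymes. Hmgcs1 supplied 29.3% to 51.2% of the summed UMIs by library, so likeness to the sum is not likeness to each of the 7 genes. The ganglioside synthase gene St3gal5 was at 184, 77.7 and 405 CPM, the same order as Hmgcs1.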

How the data were processed

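Libraries were made from dissociated liver cells with the 10x Genomics 3' v3.1 kit. Cell Ranger 6.1.1 and mm10 are named by the file headers and the submitters' processing notes. The deposited matrix holds whole-number UMI counts per gene and barcode, not normalized by the authors. The barcode suffix gives the library. Strand use in counting is not given in the sources used here.

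Barcodes with at least 500 UMIs, 250 genes and at most 40% mitochondrial UMIs were clustered with scanpy 1.11.5 (Leiden, resolution 1, 2000 variable genes, 30 components, 15 neighbours), and clusters were named from fixed markers. Scrublet marked 0 doublets in each library, a result taken as no usable call, and doublets were kept. UMIs were summed per class and library and scaled to the class total (CPM). Levels have exact Poisson intervals, ratios exact conditional binomial intervals and shares exact Clopper-Pearson intervals. With 1 library per genotype there was no test, and a 1.5-fold rule replaced it. Scripts were tested on simulated data.

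The members, lists and tests were chosen with earlier results of these data known. Named were the 7 members; list genes at least 1.5-fold off in flox/flox against both other libraries, or in wt/flox against wt/wt; each list's highest gene; and the 10 genes of the likeness rule, r of log2(CPM + 5). Other names are said to have been added. Coordinates are from GENCODE on GRCm38 (mm10). Alternatives changed barcode filters, class, scaling, weighting, thinning, fold and zone settings. Those leaving out the nuclear-led or mitochondrial-led cluster, and the mean of within-cluster ratios, were chosen after seeing the data.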

Additional observations from a re-analysis of the deposited data

How the results depend on the processing

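Of 486 recomputed values, 401 stayed within the main counting interval (counts: within 1.5-fold), 78 moved and 7 turned in direction. Ratios whose main interval included 0 were not counted as turned, though some of them changed sign. Lss in flox/flox over wt/flox, 0.24 in the main result, reached -0.02. Srebf2 in wt/flox over wt/wt, -0.06 in the main result, reached 1.45. No paired analysis was possible because each genotype has 1 library. The sum of the 7 genes, 0.29 for flox/flox over wt/wt, was 0.55 in barcodes of at least 2000 UMIs, 0.33 scaled without mitochondrial genes, 0.24 scaled by the median of ratios, 0.25 thinned to 1000 UMIs and 0.22 in the most pericentral barcodes. For flox/flox over wt/flox, 0.47 became 0.53 without mitochondrial genes in the scaling, 0.53 without the nuclear-led cluster, 0.38 and 0.56 in barcodes with Malat1 and Neat1 shares at or above and below the median, and 0.39 in the most periportal barcodes. For wt/flox over wt/wt, -0.18 became -0.11 and -0.26 at high and low Malat1 and Neat1 shares, -0.0808 and -0.25 in periportal and pericentral barcodes, and turned to 0.0754 at 2000 UMIs or more. The 4 enzymes higher in flox/flox over wt/wt became 7 at 2000 UMIs or more, 0 at a fold of 2 and 2 by the mean of within-cluster ratios. The 4 over wt/flox became 7 at 1000 UMIs or more, 9 at 2000 and 1 at a fold of 2. For these enzyme counts and those that follow next, the share of all genes under the same settings is not given. Nothing about the enzymes is therefore read from them. The 0 enzymes lower in wt/flox over wt/wt became 1 at 1000 UMIs or more, 5 at 2000, 2 with all classes, 1 by the median of ratios, 2 when thinned, 5 at low Malat1 and Neat1 shares, 2 in pericentral barcodes and 1 by within-cluster ratios. At 2000 UMIs or more, which left 118, 99 and 375 barcodes, Srebf2 (0.51), Fdft1 (0.75) and Insig1 (0.37) turned in direction for flox/flox over wt/wt, Idi1 (-0.0346) for flox/flox over wt/flox and Fdft1 (0.90) for wt/flox over wt/wt. In those barcodes Srebf2, Sqle and Fdft1 had 8, 5 and 9 UMIs in wt/wt. With at least 10 zonation marker UMIs, the periportal over pericentral ratio in flox/flox was 0.0752 for the sum and turned to 0.048 for Hmgcs1. The share of barcodes with any of the 7 genes became 70.8% in wt/wt and 66.4% in wt/flox when thinned. The causes were not tested. Scaling by the median of ratios shifted all genes by -0.05, -0.02 and -0.03 in the 3 comparisons.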
